A study of Mus musculus with 32 samples.

Results

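The 9 genes described here make, bind, break down or respond to retinoic acid (RA): Aldh1a2, Aldh1a3, Dhrs3, Cyp26a1, Cyp26b1, Cyp26c1, Crabp2, Rarb and Stra8. They were matched by symbol to the deposited Entrez identifiers, and are 9 of 20612 genes listed in any of 32 RNA libraries. The cells were J1 mouse embryonic stem cells (ESCs, 1 line from strain 129S4/SvJae) and their derivatives, so every group shares that genetic background. Cultures were sampled as ESCs at day 0 and as embryoid bodies (EBs), the suspended clumps in which ESCs differentiate, at day 4, day 6, day 9, day 12 and day 20. EBs of days 6 to 20 form the global branch of differentiation. In the neural branch, day 8 EBs had spent 4 days in RA (called RA EBs), and monolayer neural progenitor cells (NPCs) were taken at day 10. Each of these 8 stages was sampled once in each of 4 treatments: dimethyl sulfoxide (DMSO), the solvent control, or 100 nM of a bisphenol, namely BPA (bisphenol A), BPF (bisphenol F) or BPS (bisphenol S). The compounds share a pair of phenol rings and differ in the bridge between them, which is an isopropylidene group in BPA, a methylene group in BPF and a sulfonyl group in BPS.

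RA is a small hormone made from vitamin A. Retinol is oxidised to retinaldehyde, which the aldehyde dehydrogenases Aldh1a2 and Aldh1a3 oxidise to RA, while the reductase Dhrs3 returns retinaldehyde to retinol. The cytochrome P450 enzymes Cyp26a1, Cyp26b1 and Cyp26c1 oxidise RA for removal. Crabp2 binds RA in the cytosol and delivers it to nuclear receptors, of which Rarb is one and is itself a classic RA target. Stra8, named as a gene stimulated by RA, is needed for germ cells to enter meiosis. Cyp26a1, Dhrs3 and Rarb are known for rising when RA acts, and RA is widely used to direct EBs to a neural and caudal fate.

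On GRCm38, Cyp26a1 (Entrez gene 13082) lies at chr19:37697738-37701536 and Cyp26c1 (546726) beside it at chr19:37685112-37693320. Cyp26b1 (232174) lies at chr6:84571414-84593908 and Stra8 (20899) at chr6:34920163-34939344. Aldh1a2 (19378) lies at chr9:71215789-71296243, Aldh1a3 (56847) at chr7:66390892-66427477 and Dhrs3 (20148) at chr4:144892534-144928209. Rarb (218772) lies at chr14:16430839-17082331 and Crabp2 (12904) at chr3:87948693-87953372.

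RA receptors bind pairs of hexamers, and the pair spaced by 5 bases (DR5) is the best known arrangement. RefSeq promoters of GRCm38.p6, running from 250 bases before a listed start to 50 after it, were given for 7 of the 9 genes. These 7 genes had 9 listed promoters, and 2 of those promoters, from 2 genes, held a DR5 on either strand. It was found in 32 of 32851 promoters (0.0974%). The 2 stretches are shown because the levels of these genes, an RA receptor and an RA hydroxylase, carry much of what follows. Both are written 5′ to 3′ on the gene's strand with the DR5 in capitals, which in Cyp26a1 reads as a DR5 on the opposite strand.
Rarb, GRCm38.p6 chr14:16575507-16575535, minus strand: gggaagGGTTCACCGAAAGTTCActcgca
Cyp26a1, GRCm38.p6 chr19:37697770-37697798, plus strand: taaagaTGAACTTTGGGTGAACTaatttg
The DR5 began 53 bases and ended 37 bases before the start listed for that Rarb promoter. In Cyp26a1 it covered bases 32 to 16 before the start listed for its promoter. Both elements, at chr14:16575513-16575529 and chr19:37697776-37697792, lie inside the gene spans given above and not before them. Pairs spaced by 2 bases (DR2, in 0.268% of promoters) or by 1 base (DR1, in 0.222%) were in none of the 7 promoter sets. A match describes letters and is not a measured binding site.

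Library totals lay between 9574833 and 11070149 expected counts. All 9 genes passed the filter of 1 CPM (counts scaled to library depth) in at least 4 libraries, Cyp26c1 through 9 libraries and Aldh1a3 through 12. For Cyp26c1 these were 4 libraries each of EB days 6 and 9 and 1 of RA EBs. Aldh1a3 reached 1 CPM in all 4 libraries only in ESCs and EBs of day 20. Both genes thus entered the tests through the stages where they were highest, and their calls there are not independent of the filter. The pluripotency marker list was highest in ESCs and the neuronal list in NPCs, but neither changed steadily over the stages. The 6 pluripotency markers summed to between 1915 and 1998 FPKM (fragments scaled to transcript length and library depth) in ESCs and to between 11.1 and 14.9 in NPCs. The 6 neuronal markers summed to between 36.2 and 40.6 FPKM in ESCs, to between 226.0 and 286.0 in RA EBs and to between 1638 and 1737 in NPCs. At EB day 4 the neuronal sum was 8.20 to 8.88 FPKM, below that of ESCs. Pluripotency sums were 29.3 to 36.4 FPKM at EB day 12 and higher, at 55.7 to 78.0, at EB day 20. The 5 neural progenitor markers summed to less in NPCs (127 to 169.7 FPKM) than in ESCs (249.8 to 269.5), and the 4 endothelial markers were highest in ESCs (69.9 to 73.8 FPKM). Each stage has 1 library per treatment, and its 4 libraries served as its replicates in comparisons of stages. The labels name no separate cultures, so the p-values reflect only how far these samples vary, which may be technical. In whole cultures, fewer cells of a type and less RNA per cell cannot be told apart. Rarb shares exon bases on the opposite strand with Top2b and Gm48162, and the strand setting of the counting is not given in the sources used here.

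Of the 9 genes, 6 had their highest levels in RA EBs, without overlap with any other stage. Crabp2 was the most abundant, at 1043 ± 175 FPKM (mean ± SD, n = 4), against 304 ± 32.6 in NPCs, the next highest stage. Cyp26b1 stood at 115 ± 17.6 FPKM in RA EBs and at no more than 1.86 FPKM in any library of another stage. Cyp26a1 was at 102 ± 13.4 FPKM in RA EBs and 46.2 ± 26.8 in EBs of day 6. Rarb was at 63.5 ± 3.96 FPKM in RA EBs, and its levels in NPCs (12.8 ± 1.89) and in EBs of day 12 (10.4 ± 5.69) overlapped. That overlap was among bisphenol libraries, while with DMSO Rarb stood at 12.79 FPKM in NPCs and 2.05 at day 12. Stra8 was at 38.9 ± 22.6 FPKM in RA EBs and 10.7 ± 0.551 in ESCs. Dhrs3 was at 43.3 ± 10.4 FPKM in RA EBs, also above all other libraries, and at 21.0 ± 8.34 in EBs of day 20. Aldh1a2 had no single peak over the treatments: EBs of day 20 (9.48 ± 5.94 FPKM), NPCs (8.93 ± 1.64) and RA EBs (6.59 ± 1.69) overlapped. At day 20 the DMSO library read 0.69 FPKM and the bisphenol libraries 11.22 to 13.54, above every library of the other stages. With DMSO, Aldh1a2 was highest in NPCs (11.1 FPKM). Cyp26c1 and Aldh1a3 were low throughout. Cyp26c1 was highest in EBs of day 6 at 1.85 ± 0.576 FPKM, and Aldh1a3 in EBs of day 20 at 0.993 ± 0.651.

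**Figure D1:**
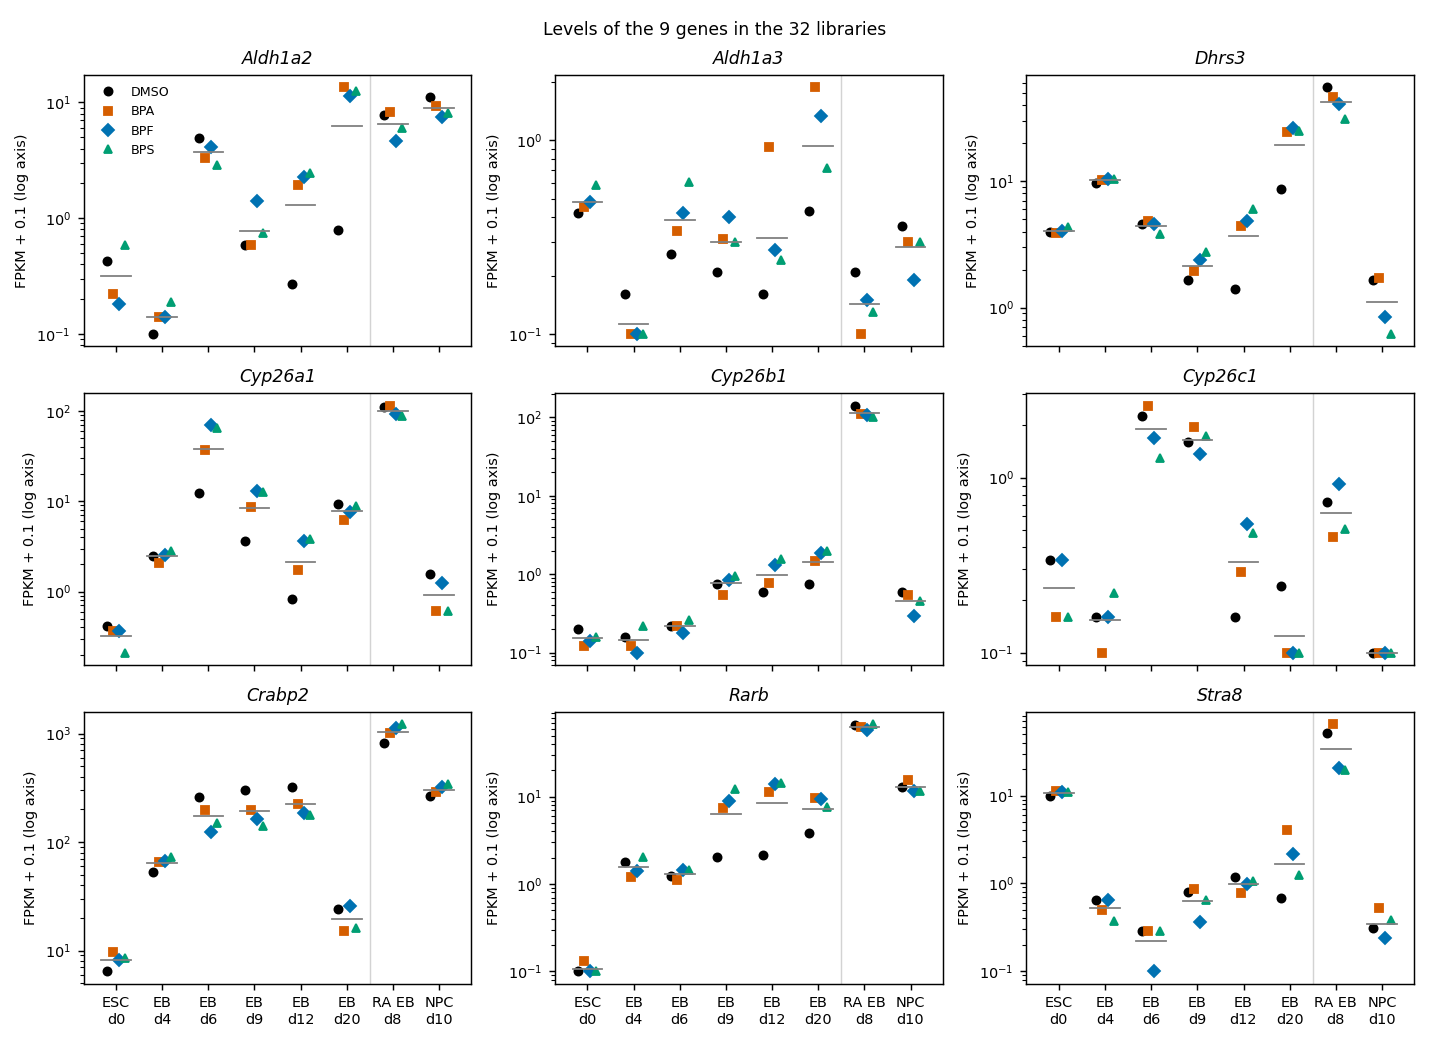
FPKM plus 0.1 on a log axis for each gene at the 8 stages, with 1 point per library coloured by treatment and a grey bar at the mean of the logs. In RA EBs, Crabp2, Cyp26b1, Cyp26a1, Rarb, Dhrs3 and Stra8 lie above every library of the other stages, and Rarb in DMSO lies at 1.95 FPKM in EBs of day 9 below the 3 bisphenol libraries.

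When ESCs formed EBs by day 4, 4 of the 9 genes rose and 2 fell. A gene was called in edgeR's quasi-likelihood test where its absolute log2 change was at least 1 and its p, adjusted by Benjamini-Hochberg, was under 0.05, which 14.4% of all genes tested passed as higher and 13.6% as lower. Crabp2 read 6.33, 9.66, 8.07 and 8.40 FPKM in ESCs (in the order DMSO, BPA, BPF, BPS, kept from here on) and 52.7, 64.8, 67.0 and 72.04 at day 4. The groups were far apart, with a log2 change of 3.0 ± 0.28 (± SE, adjusted p = 2.99e-10). Rarb had 1 count over the 4 ESC libraries and 189 at day 4, a ratio of 197 (95% exact interval 34.9 to 7814, counting error only). Cyp26a1 rose by 3.32 ± 0.75 (adjusted p = 0.00037) to between 1.96 and 2.72 FPKM, and Dhrs3 by 1.39 ± 0.30 (adjusted p = 0.000179) to between 9.60 and 10.4 FPKM. Stra8 fell from 9.89, 11.1, 10.9 and 10.9 FPKM to 0.54, 0.40, 0.54 and 0.27 (log2 change -4.63 ± 0.40, adjusted p = 6.03e-11). In these same libraries the 6 germ cell and meiosis markers summed to between 55.9 and 61.6 FPKM in ESCs and between 62.4 and 73.7 at day 4. Aldh1a3 had 57 counts in ESCs and 2 at day 4, both in the DMSO library, which is 27.4-fold lower (95% exact interval 7.24 to 231).

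Between days 4 and 6, 5 of the 9 genes rose and 1 fell, where 10.8% of all genes were called higher and 8.75% lower. Aldh1a2, the main RA-making enzyme of the embryonic trunk, went from 0, 0.04, 0.04 and 0.09 FPKM to 4.82, 3.22, 4.03 and 2.81. The groups did not overlap, and the log2 change was 6.28 ± 0.94 (adjusted p = 2.71e-06), or 6.92 without the BPS libraries. Of the degrading enzymes, 2 rose with it. Cyp26a1 reached 12.3, 37.4, 70.2 and 64.8 FPKM, a log2 change of 4.13 ± 0.38 (adjusted p = 7.28e-10), with the DMSO library the lowest. Cyp26c1 rose by 4.68 ± 0.58 (adjusted p = 2.5e-07), or 5.38 without BPS, to between 1.19 and 2.48 FPKM. Crabp2 rose by 1.43 ± 0.23 (adjusted p = 6.06e-06). Aldh1a3 had 2 counts at day 4 and 46 at day 6, a ratio of 21.8 (95% exact interval 5.70 to 185). Dhrs3 fell by 1.28 ± 0.29 on the log2 scale (adjusted p = 0.000566).

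From day 6 to day 9, 3 genes rose and 3 fell, against 10.7% and 3.97% of all genes. Rarb went from 1.15, 1.02, 1.36 and 1.36 FPKM to 1.95, 7.23, 8.84 and 11.98. Every library rose, the DMSO library least, and the log2 change was 2.44 ± 0.39 (adjusted p = 9.46e-06). Cyp26b1 rose by 2.45 ± 0.46 (adjusted p = 7.11e-05), from at most 0.16 FPKM to between 0.45 and 0.86. Aldh1a2 changed by -2.44 ± 0.58 (adjusted p = 0.000879) and Cyp26a1 by -2.31 ± 0.32 (adjusted p = 1.12e-06), the latter to 3.54, 8.53, 12.9 and 12.8 FPKM. Dhrs3 (-1.11 ± 0.34, adjusted p = 0.00859) was called lower, but at -0.95 without the DMSO libraries it missed the fold threshold, and without BPA its adjusted p was 0.0778. Stra8 (1.85 ± 0.72, adjusted p = 0.034) was called higher, at no more than 0.77 FPKM. Leaving out any 1 treatment ended that call, with adjusted p between 0.0716 and 0.0729.

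From day 9 to day 12, none of the 9 genes rose and 2 fell, where 7.56% and 2.43% of all genes were called. Both were degrading enzymes. Cyp26a1 went to 0.72, 1.65, 3.54 and 3.72 FPKM (log2 change -1.99 ± 0.41, adjusted p = 0.000263), and Cyp26c1, from between 1.26 and 1.85 FPKM, to between 0.06 and 0.44 (-2.53 ± 0.45, adjusted p = 8.49e-05). Dhrs3 (0.93 ± 0.35, adjusted p = 0.0331) was the 1 member higher at an unadjusted p under 0.05, and it stayed under the fold threshold. Without the DMSO libraries, Aldh1a2 (1.32, adjusted p = 0.00168) and Dhrs3 (1.08, adjusted p = 0.000311) were also called, as higher.

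Between days 12 and 20, 4 genes rose and 2 fell, against 17.6% and 8.78% of all genes. Dhrs3 read 1.31, 4.30, 4.72 and 5.88 FPKM at day 12 and 8.57, 24.6, 26.3 and 24.7 at day 20. All 4 treatments rose, and the log2 change was 2.21 ± 0.29 (adjusted p = 1.38e-07). Aldh1a2 rose by 2.39 ± 0.50 (adjusted p = 0.000148), although its DMSO library reached only 0.69 FPKM. Cyp26a1 rose by 1.68 ± 0.42 (adjusted p = 0.000814) to between 6.13 and 9.25 FPKM. Crabp2 went the other way, from 325, 226, 185 and 178 FPKM to 23.8, 15.1, 25.5 and 16.1 (-3.60 ± 0.25, adjusted p = 9.83e-13). Aldh1a3 (1.64 ± 0.50, adjusted p = 0.00551) was called higher at no more than 1.79 FPKM. Its call was lost without BPF (adjusted p = 0.0815), and its change was 2.36 without BPA. Cyp26c1 had 17 counts at day 12 and 2 at day 20, or 8.15-fold fewer (95% exact interval 1.93 to 72.7), a call lost without BPF (adjusted p = 0.0735) or BPS (adjusted p = 0.0545).

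Between EBs of day 4 and RA EBs, 8 of the 9 genes rose and none fell, with a median log2 change of 5.29, whereas 19% of all genes were called higher and 15.7% lower around a median of 0.03. The degrading enzyme Cyp26b1 went from 0.06, 0.02, 0 and 0.12 FPKM to 141, 109.8, 108 and 102. This was the largest of the 9 changes, at 10.98 ± 0.31 (adjusted p = 3.65e-21), or 11.86 without the BPS libraries. Cyp26a1 went from between 1.96 and 2.72 FPKM to 112, 115, 93.9 and 88.2 (5.39 ± 0.39, adjusted p = 9.7e-13). Cyp26c1, which lies next to Cyp26a1 on chromosome 19 with 4417 bases and no RefSeq gene between them, reached only 0.63, 0.36, 0.82 and 0.41 FPKM (2.89 ± 0.68, adjusted p = 0.000531, or 3.52 without BPS). The 3 degrading enzymes thus ended at very different levels, with Cyp26c1 below 1 FPKM in all 4 libraries.

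Among the receptor and its partners, Rarb went from 1.67, 1.11, 1.30 and 1.93 FPKM to 66.2, 62.0, 58.6 and 67.2 (5.30 ± 0.37, adjusted p = 7.04e-13), with little spread between treatments. Crabp2 went from between 52.69 and 72.04 FPKM to 812, 1016, 1131 and 1214 (3.93 ± 0.24, adjusted p = 3.55e-14). Stra8 reached 51.6, 64.4, 20.5 and 19.2 FPKM (6.24 ± 0.39, adjusted p = 4.04e-14), higher in the DMSO and BPA libraries than in those with BPF and BPS. The 6 germ cell and meiosis markers summed to between 14.2 and 28.9 FPKM in RA EBs, below their sums at day 4. For RA supply, Aldh1a2 rose to 7.74, 8.18, 4.54 and 5.89 FPKM (7.03 ± 0.89, adjusted p = 7.08e-08). Dhrs3 rose to 55.7, 46.1, 40.5 and 30.8 FPKM (1.99 ± 0.26, adjusted p = 1.47e-07). Aldh1a3 did not pass the test, with 2 counts at day 4 and 7 in RA EBs (a ratio of 3.34, 95% exact interval 0.636 to 32.9).

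RA EBs differ from day 4 EBs in age as well as in RA, so a further contrast used the average over EB day 6 and EB day 9, which the labels do not list as given RA. 7 of the 9 genes were higher in RA EBs and 2 lower, against 8.62% and 10.3% of all genes. Cyp26b1 was higher by 8.66 ± 0.19 (adjusted p = 2.98e-23), Stra8 by 6.93 ± 0.31 (adjusted p = 1.08e-16), Rarb by 4.44 ± 0.27 (adjusted p = 8.65e-14) and Dhrs3 by 3.82 ± 0.23 (adjusted p = 9.68e-14). Crabp2 (2.47 ± 0.18), Cyp26a1 (2.42 ± 0.25) and Aldh1a2 (1.97 ± 0.42, adjusted p = 0.000224) were higher by less. Cyp26c1 was lower in RA EBs, by 1.64 ± 0.36 on the log2 scale (adjusted p = 0.000403). Aldh1a3 was also called lower, at -2.33 ± 0.72 (adjusted p = 0.00667), on 7 counts in RA EBs. Without BPS that call was lost (adjusted p = 0.0644), and without DMSO the change was -3.30.

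From RA EBs to NPCs 2 days later, 7 of the 9 genes fell and 1 rose, where 17.4% of all genes were called lower and 18.1% higher. The median log2 change was -5.29, or -3.52 where Cyp26c1 enters at its lower bound. Cyp26b1 went to 0.50, 0.44, 0.19 and 0.36 FPKM (-8.19 ± 0.25, adjusted p = 2.04e-20), and Cyp26a1 to 1.46, 0.51, 1.13 and 0.51 (-6.81 ± 0.44, adjusted p = 9.27e-14). Cyp26c1 had 37 counts in RA EBs and none in NPCs, at least 11.5-fold lower against 3 counts over the group. Stra8 (-7.02 ± 0.42, adjusted p = 1.45e-14) went to at most 0.42 FPKM, and Dhrs3 (-5.29 ± 0.35, adjusted p = 1.26e-13) to at most 1.62.

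The receptor and the binding protein kept part of their level. Rarb fell by 2.23 ± 0.30 on the log2 scale (adjusted p = 1.61e-07) to 12.8, 15.5, 11.6 and 11.4 FPKM. Crabp2 fell by 1.72 ± 0.22 (adjusted p = 6.25e-08) to 267, 288, 319.7 and 340.3 FPKM. Aldh1a2, at 11.1, 9.26, 7.41 and 7.95 FPKM in NPCs, did not pass the test (log2 change 0.53, 95% interval -0.39 to 1.44). Aldh1a3 was called higher (2.0 ± 0.83, adjusted p = 0.0329) on 7 and 26 counts. Leaving out BPA, BPF or BPS ended that call, with adjusted p of 0.0736, 0.0545 and 0.123.

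Relative to EB day 9 and EB day 12 averaged, 1 of the 9 genes was higher in NPCs and 4 were lower, among 16.4% and 22.4% of all genes. Aldh1a2 was the higher one (3.18 ± 0.42, adjusted p = 1.22e-07). Cyp26a1 was lower (-2.23 ± 0.49, adjusted p = 0.000163, or -2.91 without DMSO), and Cyp26c1, with 120 counts in the EBs and none in NPCs, was at least 19.2-fold lower. Dhrs3 (-1.37 ± 0.37, adjusted p = 0.00161) lost its call without BPS, where the change was -0.91. Stra8 (-1.35 ± 0.56, adjusted p = 0.0304) lost its call without DMSO, BPF or BPS, with adjusted p of 0.103, 0.0606 and 0.0714. Cyp26b1 (-0.99 ± 0.32), Rarb (0.77 ± 0.26) and Crabp2 (0.64 ± 0.18) stayed under the fold threshold. Cyp26b1 passed it without DMSO (-1.29) or BPA (-1.23), and Rarb without BPS (1.07). These changes average over the treatments. With DMSO alone, Rarb stood at 1.95 and 2.05 FPKM in EBs of days 9 and 12 and at 12.79 in NPCs. Aldh1a2 with DMSO stood at 0.49 and 0.17 FPKM against 11.1 in NPCs. Dhrs3 stood at 1.54 and 1.31 against 1.54, Cyp26a1 at 3.54 and 0.72 against 1.46, and Crabp2 at 304 and 325 against 267.

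**Figure D2:**
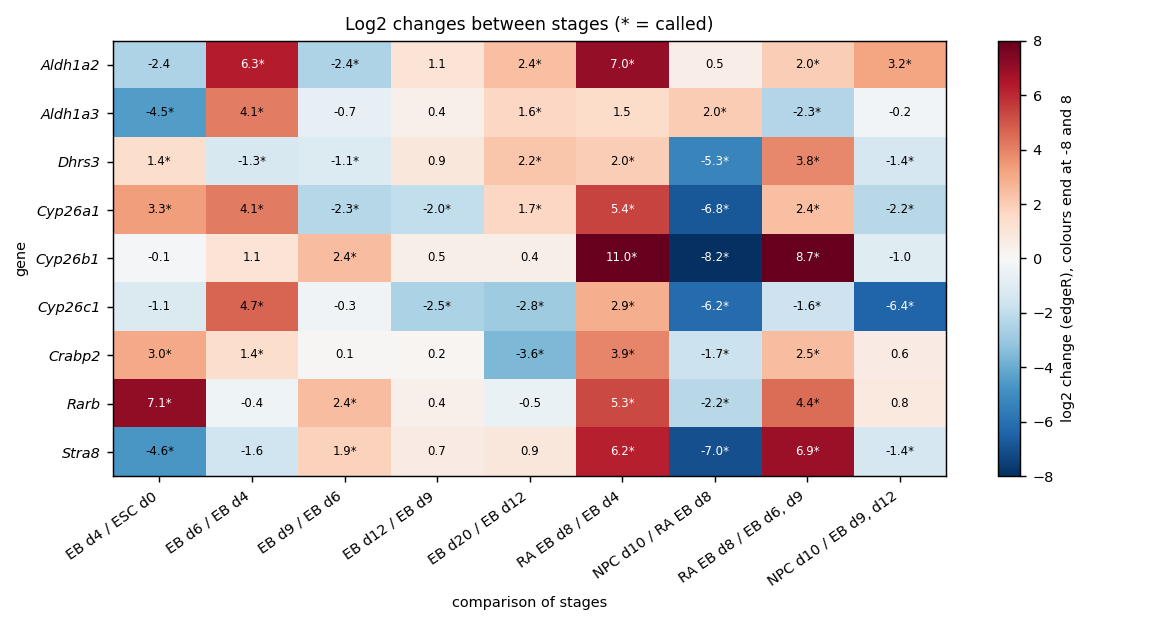
EdgeR log2 changes of the 9 genes (rows) in the 9 comparisons of stages (columns), with a star where a gene was called. The RA EB column against EB day 4 is positive for 9 genes and starred for 8, and the next column, NPCs against RA EBs, is starred negative for 7. Fitted values of genes with 3 counts or fewer in a group depend on the prior count and are no measure of size.

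Each bisphenol was compared with DMSO over all 8 stages in a model with a term for stage. None of the 9 genes passed an adjusted p under 0.05 with BPA, BPF or BPS, where 0.166%, 0.992% and 1.15% of all genes did, and 2 of the 9 had an unadjusted p under 0.05 in each of the comparisons. DESeq2 and limma called none of the 9 either. Rarb came nearest, with log2 changes of 0.65 ± 0.26 (BPA, adjusted p = 0.384), 0.69 ± 0.26 (BPF, adjusted p = 0.219) and 0.83 ± 0.26 (BPS, adjusted p = 0.0979). For BPS it was called without the NPC libraries (1.04, adjusted p = 0.0358).

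Restricted to the 16 EB libraries of days 6 to 20, a choice made after seeing the data, the same model called 2 members higher and 1 lower with BPA. The background was 2.31% and 1.51% of 14872 genes. With BPF it called 3 higher and 1 lower (background 6.57% and 5.94%), and with BPS 4 higher and 1 lower (background 7.91% and 6.82%). The comparisons share the DMSO libraries. Rarb was higher by 1.52 ± 0.33 with BPA (adjusted p = 0.021), 1.70 ± 0.33 with BPF (adjusted p = 0.0047) and 1.79 ± 0.33 with BPS (adjusted p = 0.00312). Crabp2 was lower by 0.56 ± 0.14, 0.75 ± 0.15 and 0.88 ± 0.15 in that order on the log2 scale (adjusted p = 0.0473, 0.00547 and 0.0017). Cyp26a1 was called with BPF (1.43 ± 0.37) and BPS (1.43 ± 0.37) and stood at 0.71 ± 0.38 with BPA. Dhrs3 was called with BPF (0.96 ± 0.28) and BPS (1.01 ± 0.29) and stood at 0.82 ± 0.29 with BPA. Cyp26b1 was called with BPS (1.02 ± 0.27) and stood at 0.76 ± 0.27 with BPF (adjusted p = 0.0815) and 0.26 ± 0.28 with BPA. Aldh1a3 was called with BPA (2.08 ± 0.52, adjusted p = 0.041) and stood at 1.47 ± 0.54 with BPF (adjusted p = 0.089) and 1.18 ± 0.56 with BPS.

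The compounds were compared with one another at the same dose and stages in 3 pairs, with adjustment over all genes within each pair. Over 8 stages no member was called in any pair by edgeR, DESeq2 or limma, where 0% (BPA against BPF), 0.0064% (BPA against BPS) and 0% (BPF against BPS) of all genes were. The largest differences were those of Stra8, which was 0.81 higher with BPA than with BPF (95% interval 0.23 to 1.38, adjusted p = 1) and 0.86 higher than with BPS (0.28 to 1.45, adjusted p = 0.583). Unadjusted p under 0.05 occurred for 1 member in each of these pairs and for none between BPF and BPS. For Crabp2 the interval of BPF against BPS was -0.33 to 0.34, and for Aldh1a2 it was -0.85 to 0.76. In EBs of days 6 to 20 alone, again no member was called in a pair (background 0%, 0.0471% and 0% in the same order). There, Cyp26b1 was 0.76 lower with BPA than with BPS (interval -1.32 to -0.20, adjusted p = 0.445) and Cyp26a1 0.72 lower (-1.46 to 0.01). In the other direction, Crabp2 was 0.32 higher with BPA than with BPS (0.01 to 0.64, adjusted p = 0.558) and Aldh1a3 0.90 higher (-0.09 to 1.88, adjusted p = 0.61). Cyp26b1 and Crabp2 were the 2 members with an unadjusted p under 0.05. These intervals do not show that the compounds act alike.

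At single stages the 3 bisphenol libraries were compared as 1 class with the lone DMSO library, which was assumed to vary like the others. No member was called in ESCs (background 0%) or at day 4 (0.563%), and none of the 9 had an unadjusted p under 0.05 at either stage. By DESeq2 and by limma, too, no member was called there. At day 6, 1 member was higher and 1 lower, against 1.55% and 1% of all genes. Cyp26a1 stood at 12.3 FPKM with DMSO and at 37.4, 70.2 and 64.8 with BPA, BPF and BPS, a log2 change of 2.20 ± 0.30 (adjusted p = 4.83e-05). Crabp2 stood at 258 FPKM with DMSO and at 196, 125 and 150.2 with the bisphenols (-0.74 ± 0.19, adjusted p = 0.0275). The Crabp2 call was lost without BPF (adjusted p = 0.255) or BPS (adjusted p = 0.101). Crabp2 was also not called at this stage by DESeq2 or limma. The 6 markers of primitive streak and tailbud summed to 29.7 FPKM with DMSO and to between 73.7 and 93.7 with bisphenols (2 of 5 tested higher), while Tbx6, 1 of these markers, stood at 0.70 FPKM with DMSO and at 0.37 to 0.64 with bisphenols. Endoderm markers summed to 26.5 FPKM against 52.8 to 63.1 (2 of 5 higher). Neural progenitor markers summed to 152 FPKM against 113 to 131 (2 of 5 lower). Of 3 motor neuron markers 1 was higher (0.59 FPKM against 1.60 to 4.42). Among 5 eye field and forebrain markers 1 was higher and 1 lower, and 1 of 6 paraxial mesoderm and mesenchyme markers was higher. Their part in the result was not tested.

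At day 9, 2 members were higher and 1 lower, against 4.01% and 3.48% of all genes. Rarb stood at 1.95 FPKM with DMSO and at 7.23, 8.84 and 11.98 with bisphenols (2.21 ± 0.28, adjusted p = 1.42e-05). Cyp26a1 stood at 3.54 FPKM against 8.53, 12.9 and 12.8 (1.66 ± 0.38, adjusted p = 0.00627), a call lost without BPF (adjusted p = 0.0555). Crabp2 was lower with bisphenols, at 196, 163 and 141 FPKM against 304 (-0.89 ± 0.18, adjusted p = 0.00234). Paraxial mesoderm and mesenchyme markers summed to 17.2 FPKM with DMSO and between 58.7 and 82.4 with bisphenols, with 4 of 6 called higher. Of 5 neural progenitor markers 4 were lower, with sums of 273.9 FPKM against 166 to 206. Of 6 neuronal markers 4 were lower (206 FPKM against 98.2 to 149.8), and of 4 endothelial markers 2 were higher (5.87 FPKM against 10.3 to 39.5). Other neural lists went the other way. Of 3 motor neuron markers 1 was higher (2.67 FPKM against 6.37 to 8.74), as was 1 of 5 eye field and forebrain markers (3.90 against 5.88 to 8.94). Their part in the changes of the members was not tested.

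At day 12, 4 members were higher and 1 lower, against 10.1% and 8.79% of all genes. Aldh1a2 stood at 0.17 FPKM with DMSO and at 1.85, 2.17 and 2.35 with bisphenols (3.53 ± 0.66, adjusted p = 0.000424). Rarb stood at 2.05 FPKM against 11.3, 13.8 and 14.3 (2.63 ± 0.28, adjusted p = 1.69e-07), and Dhrs3 at 1.31 against 4.30, 4.72 and 5.88 (1.89 ± 0.37, adjusted p = 0.000582). In all of these the DMSO library lay below the bisphenol libraries. Cyp26a1 (1.99 ± 0.68, adjusted p = 0.0407) stood at 0.72 FPKM against 1.65, 3.54 and 3.72, a call lost without BPF (adjusted p = 0.122) or BPS (adjusted p = 0.133). Crabp2 again was lower with bisphenols, at 226, 185 and 178 FPKM against 325 (-0.77 ± 0.18, adjusted p = 0.00392). Cyp26b1 (1.12 ± 0.41, adjusted p = 0.0582) was called only when BPA was left out (1.38, adjusted p = 0.00408) or genes under 5 CPM were removed.

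Several marker lists moved with these genes at day 12. Cardiac markers summed to 2.29 FPKM with DMSO and between 27.3 and 253 with bisphenols (5 of 6 higher), with Ttn at 0 with DMSO. Paraxial mesoderm and mesenchyme markers summed to 8.31 FPKM against 50.9 to 59.8 (5 of 6 higher), and endothelial markers to 2.50 against 8.78 to 20.9 (3 of 4 higher). Endoderm markers summed to 30.5 FPKM against 52.8 to 256 (3 of 5 higher). All 5 neural progenitor markers and 5 of 6 neuronal markers were lower with bisphenols, with neuronal sums of 627 FPKM against 426 to 522. Other neural lists went the other way: 3 of 5 eye field and forebrain markers were higher (6.39 FPKM against 6.53 to 10.6) and 2 of 3 motor neuron markers were higher (1.81 FPKM against 4.99 to 9.38). Their part in the changes of the 9 genes was not tested.

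At day 20, 4 members were higher and none lower, against 9.14% and 10.5% of all genes. Aldh1a2 differed most, at 0.69 FPKM with DMSO and 13.5, 11.2 and 12.5 with bisphenols (4.10 ± 0.44, adjusted p = 2.26e-07). Dhrs3 stood at 8.57 FPKM against 24.6, 26.3 and 24.7 (1.41 ± 0.23, adjusted p = 9.28e-05), and Rarb at 3.71 against 9.59, 9.22 and 7.44 (1.24 ± 0.26, adjusted p = 0.00121). Cyp26b1 (1.26 ± 0.37, adjusted p = 0.016) stood at 0.66 FPKM against 1.36, 1.75 and 1.86, a call lost without BPF (adjusted p = 0.0714). Aldh1a3 (1.79 ± 0.72, adjusted p = 0.0817) stood at 0.33 FPKM against 1.79, 1.23 and 0.62, and was called without BPS (2.10, adjusted p = 0.048). Stra8 (1.97 ± 0.94, adjusted p = 0.147) stood at 0.58 FPKM against 3.98, 2.04 and 1.14, and DESeq2 called it (adjusted p = 0.0485). Among lower values, Cyp26c1, with 2 counts in all, had the only unadjusted p under 0.05. Cyp26a1 and Crabp2, called at the earlier stages, did not pass here: Cyp26a1 was at 9.25 FPKM against 6.13, 7.48 and 8.72, and whether its effect differed between days was not tested. Paraxial mesoderm and mesenchyme markers summed to 4.13 FPKM with DMSO and between 23.0 and 25.1 with bisphenols (5 of 6 higher), with Meox1 at 0 with DMSO. Neuronal markers summed to 1056 FPKM against 794 to 926 (4 of 6 lower), and 1 of 4 endothelial markers was higher. Neural progenitor markers summed to 108.5 FPKM against 103.7 to 107.9, with 1 of 5 higher and 1 lower. Eye field and forebrain markers summed to 15.1 FPKM against 8.85 to 9.14 (1 of 5 lower), and 1 of 6 pluripotency markers was lower. Their part in these changes was not tested.

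**Figure D3:**
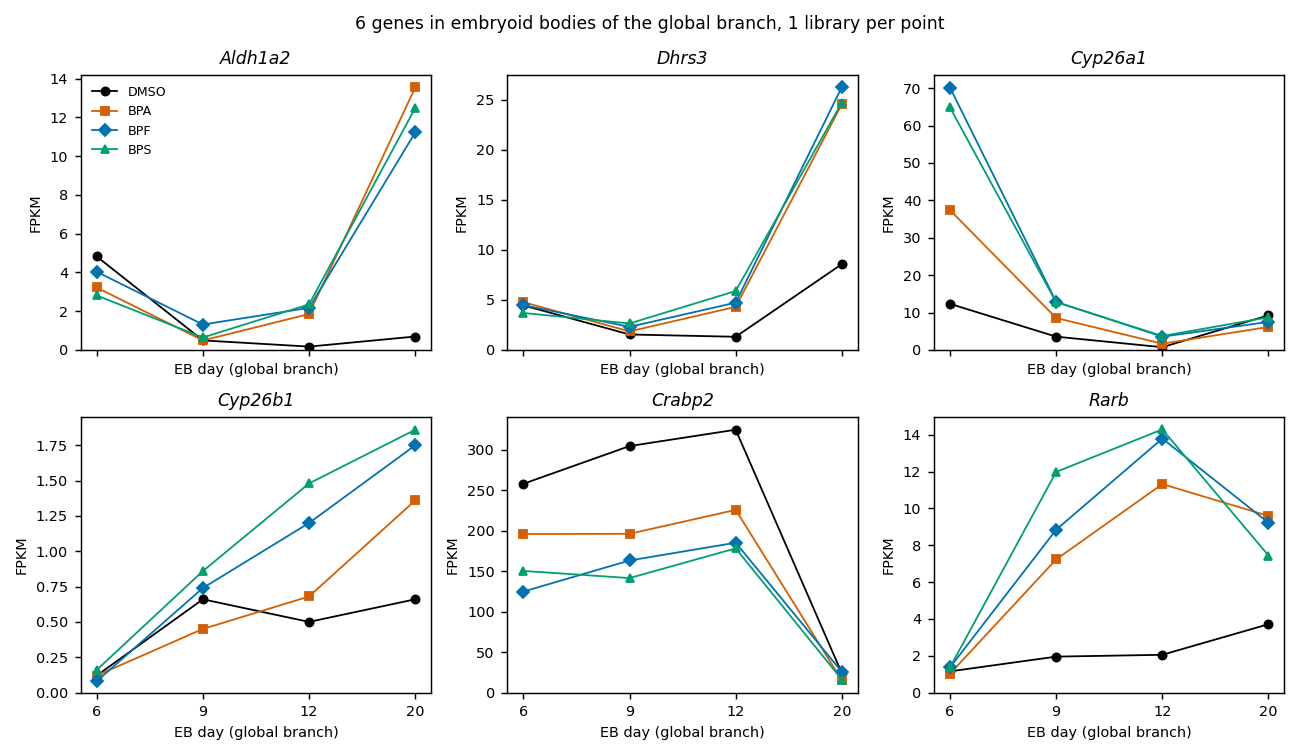
FPKM on linear axes from 0 for 6 genes in EBs of days 6, 9, 12 and 20 (drawn at even steps, not to scale in time), with 1 library per point and lines joining the points of a treatment. With DMSO, Rarb stays at or below 3.71 FPKM and Aldh1a2 ends at 0.69 FPKM at day 20, while Crabp2 at days 6, 9 and 12 is highest with DMSO.

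In the neural branch no member was called, neither in RA EBs (background 2.34%) nor in NPCs (2.25%), although 3 of the 9 had an unadjusted p under 0.05 in RA EBs and none in NPCs. DESeq2 and limma also called none there. In RA EBs, Rarb stood at 66.2 FPKM with DMSO and between 58.6 and 67.2 with bisphenols. Cyp26b1 (-0.35 ± 0.14, adjusted p = 0.189) and Dhrs3 (-0.48 ± 0.18, adjusted p = 0.166) were highest with DMSO, and Crabp2 (0.52 ± 0.19, adjusted p = 0.148) was lowest with DMSO. Without BPA, Stra8 (-1.32, adjusted p = 0.00111), Dhrs3 (-0.62, adjusted p = 0.0194) and Crabp2 (0.59, adjusted p = 0.0107) were called. No marker list had a called member in RA EBs.

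**Figure D4:**
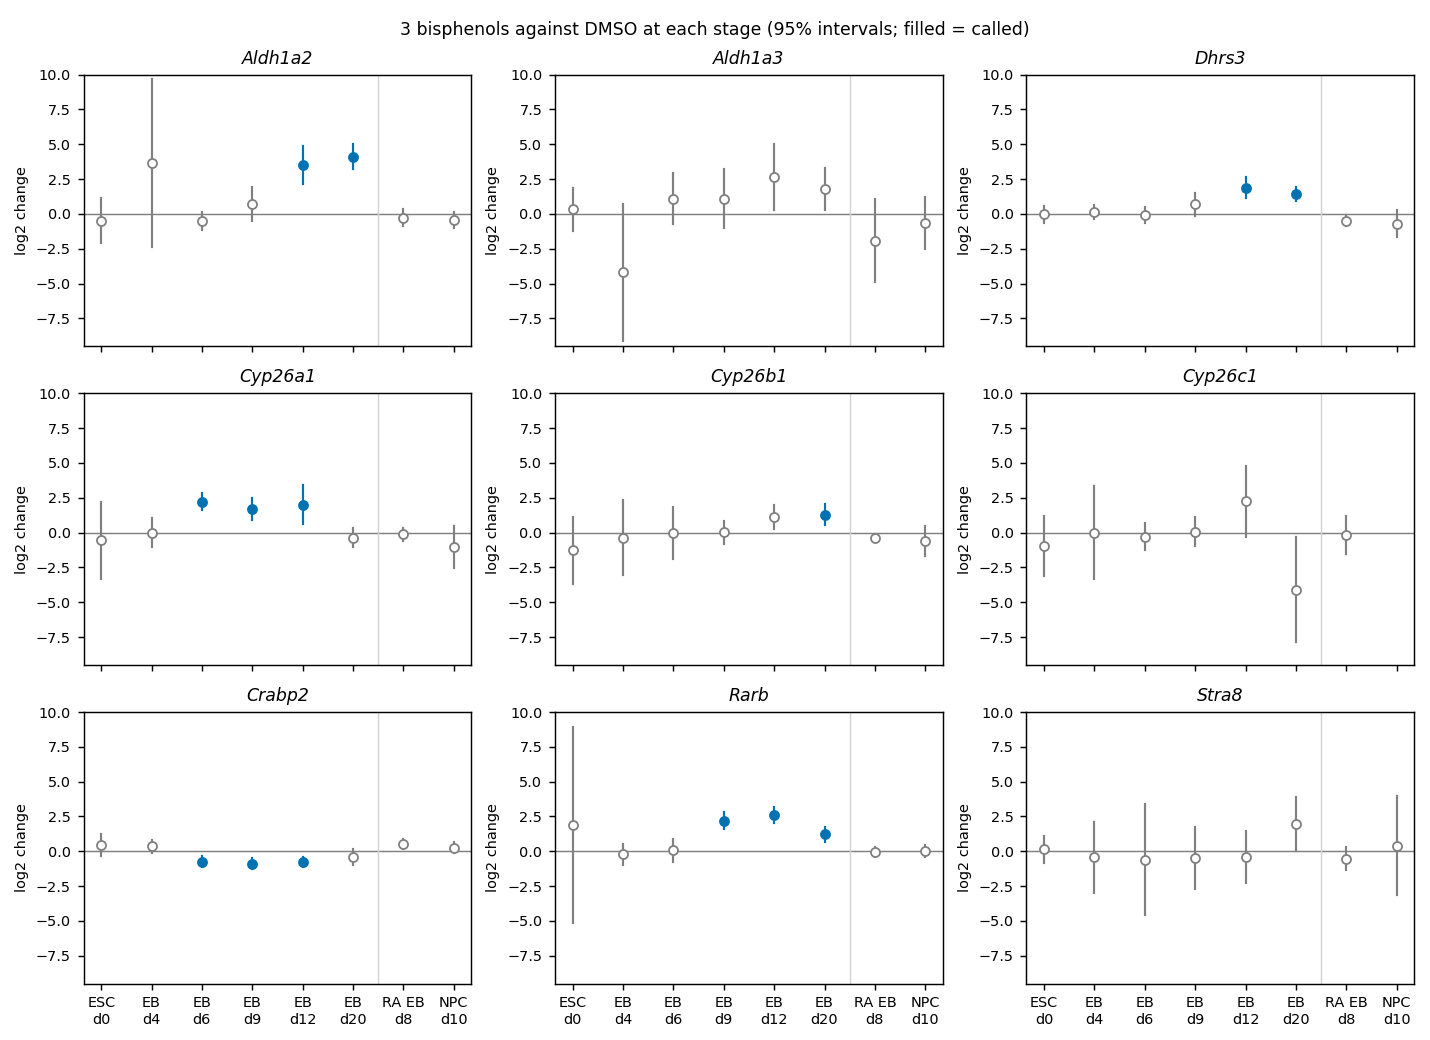
EdgeR log2 changes of the 3 bisphenols against DMSO at each stage, with 95% intervals; filled points were called and open points were not, and no value is drawn for Cyp26c1 in NPCs, where it had no counts. Called points fall in EBs of days 6 to 20, as for Rarb at days 9, 12 and 20 (2.21, 2.63 and 1.24).

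The difference between branches was itself tested as an interaction over 24 libraries (days 6 to 20 against RA EBs and NPCs). The bisphenol effect was higher in the global branch for 3 members and lower for 1, among 4.8% and 3.99% of 15084 genes. Rarb differed by 1.74 ± 0.32 (adjusted p = 0.00181) and kept its call in each alternative run. Crabp2 differed by -1.10 ± 0.20 (adjusted p = 0.00207), a call lost without RA EBs (adjusted p = 0.0566). Dhrs3 differed by 1.48 ± 0.36 (adjusted p = 0.0133), lost without BPF, BPS, EB day 20 or RA EBs (adjusted p = 0.111, 0.0601, 0.0709 and 0.203). Cyp26b1 differed by 1.17 ± 0.29 (adjusted p = 0.0162), lost on the same leave-outs (adjusted p = 0.109, 0.102, 0.0932 and 0.246). DESeq2 (adjusted p = 0.0541) and limma (adjusted p = 0.0633 and 0.102 with pseudocounts of 1 and 0.1) did not call Cyp26b1 either. Cyp26a1 (1.5 ± 0.50, adjusted p = 0.0653) was called without EB day 20 (2.23, adjusted p = 0.00155) or without BPA (1.78, adjusted p = 0.0494), and Aldh1a2 (1.61 ± 0.65, adjusted p = 0.123) without EB day 6 (3.52, adjusted p = 0.000256). DESeq2 (adjusted p = 0.0465) and limma (adjusted p = 0.0467 and 0.0281) called Cyp26a1. Aldh1a3 (2.64 ± 0.92, adjusted p = 0.074) was called by DESeq2 (adjusted p = 0.0328) and without BPA (adjusted p = 0.0362). In the same test 5 of 6 paraxial mesoderm and mesenchyme, 2 of 4 endothelial and 1 of 3 motor neuron markers were higher. Lower were 3 of 5 neural progenitor and 2 of 6 neuronal markers. The part of these markers in the difference between branches was not tested.

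A list of 34 other retinoid pathway genes, of which 30 could be tested, gives the setting. Between EBs of day 4 and RA EBs, 20 of the 30 rose and 2 fell (median log2 change 2.64). Of all genes, 19% were called higher and 15.7% lower, and these stages differ in age as well as in RA. The rule on fitted changes named Nr2f1, Aldh1a7 and Hoxb1, all close to 0 at day 4, so their fitted changes are no measure of size and their levels are given instead. Nr2f1, a nuclear receptor gene, went from at most 0.12 FPKM to 71.8 ± 5.69 (SD, n = 4). The dehydrogenase gene Aldh1a7 and the hindbrain Hox gene Hoxb1 each went from at most 0.05 FPKM, to 8.27 ± 1.05 and 7.82 ± 1.32. The receptor Rarg fell by 2.76 on the log2 scale (adjusted p = 3.5e-11) and the repressor Bhlhe40 by 1.35. From RA EBs to NPCs 4 rose and 14 fell, against 18.1% and 17.4% of all genes. Among those that fell were Aldh1a1 (-5.08, from a mean of 6.89 FPKM to 0.202) and Lrat (-4.23). Lrat went from a mean of 0.22 FPKM to 0.01, so its fitted change is no measure of size. RA EBs against EBs of days 6 and 9 had 14 higher and 4 lower, against 8.62% and 10.3% of all genes. Aldh1a1 (5.31) and Adh1 (4.67) were among the highest, with means of 6.89 and 3.50 FPKM in RA EBs. At days 6 and 9 the means were 0.048 and 0.643 FPKM for Aldh1a1 and 0.07 and 0.262 for Adh1. These fitted changes, too, are no measure of size. NPCs against EBs of days 9 and 12 had 8 higher and 9 lower, against 16.4% and 22.4% of all genes.

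In the global branch, 7 of the 30 rose and 9 fell to day 4, against 14.4% and 13.6% of all genes. To day 6, 18 rose and 2 fell (10.8% and 8.75% of all genes), and to day 9, 11 rose and 1 fell (10.7% and 3.97%). To day 12, 1 rose and 2 fell (7.56% and 2.43%), and to day 20, 4 rose and 5 fell (17.6% and 8.78%). Nr2f1 was among those that rose to day 6, to 4.98 ± 1.36 FPKM, and Crabp1 was among those that fell to day 20 (-3.76). Bisphenols against DMSO gave 1 higher and 1 lower at day 6 (1.55% and 1% of all genes) and 2 and 2 at day 9 (4.01% and 3.48%). They gave 11 and 2 at day 12 (10.1% and 8.79%), and 9 and 6 at day 20 (9.14% and 10.5%). At day 12 Aldh1a1 (2.57, adjusted p = 0.0131) was among the higher, and Crabp1 (-0.97) and Nr2f1 (-0.84) were the lower ones. At day 20 Aldh1a1 stood at 0.96 FPKM with DMSO and at 14.4 to 17.5 with bisphenols (3.98, adjusted p = 1.42e-07), and Adh1 at 0 against 1.06 to 1.31. In RA EBs none of the 30 was called (2.34% of all genes were), and in NPCs (2.25%) only Rdh10, a retinol dehydrogenase, was (-0.76, adjusted p = 0.0167).

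Genes most like a member were ranked by Pearson r on log2(FPKM + 1) over the 32 libraries, among 11430 genes with a mean of at least 5 FPKM in some stage. The 4 libraries of a stage move together, so these are descriptions. Cyp26b1 had the closest companions: Hk3 (0.986), Cxcl15 (0.976) and Meox1 (0.958). Crabp2 was followed by Hnrnph3 (0.961), Ccnjl (0.961) and H1f10 (0.960), Rarb by Zadh2 (0.925) and Galnt18 (0.923), and Cyp26a1 by Cpm (0.900), Fzd8 (0.886) and Grrp1 (0.870). For Stra8 the nearest were Upk1a (0.895), Uimc1 (0.891) and Glce (0.879), and for Cyp26c1 Arid3a (0.881), Wfikkn1 (0.881) and Uhrf2 (0.880). Aldh1a2 was nearest to Stim2 (0.873), Dpcd (0.855) and Rabl2 (0.837), Dhrs3 to Dgkz (0.860), Tec (0.846) and Ski (0.817), and Aldh1a3 to C1s1 (0.825), Il6st (0.806) and Rdh11 (0.803). Among the members themselves the highest r was that of Cyp26b1 and Rarb (0.788), followed by Cyp26b1 and Stra8 (0.757).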

How the data were processed

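Per the labels' protocols, extraction used Trizol followed by Qiagen RNeasy Plus columns. The authors deposited expected counts (estimated reads per gene) and FPKM in the columns of RSEM gene results, per the file headers. RSEM, Bowtie2, HISAT and the mm10 build appear in the submitters' processing notes, without roles or versions. Genes not listed in a library were set to 0.

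Expected counts were rounded and tested in edgeR 4.0.16 (R 4.3.3) with TMM scaling, a filter of 1 CPM in at least 4 libraries (15632 genes, or 15084 for the branch interaction) and Benjamini-Hochberg adjustment over all genes. Stages and treatments used a model of stage plus treatment, and single stages a model of stage by class. The test script was tested on simulated data. Alternatives were DESeq2 1.42.0, limma 3.58.1 on log2(FPKM + 1) and log2(FPKM + 0.1), no filter or 5 CPM, RLE scaling, no treatment term, and leaving out each treatment or stage. Members and lists were chosen with earlier results of these data known. All 9 members are named, and from the pathway list those called with the largest changes, up to 3 in each direction. Some pathway and likeness results that the rule would name are not reported here.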

Additional observations from a re-analysis of the deposited data

Results flagged for a closer look

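In 71 sets of 4 libraries (a gene at a stage), 6 had 1 library apart from the rest by Dixon's 95% critical value, where chance gives about 1 in 20. Dhrs3 in EBs of day 20 stood at 8.57 FPKM with DMSO, against 24.55 to 26.26 in the others. Aldh1a3 in EBs of day 12 stood at 0.82 FPKM with BPA, against 0.06 to 0.17. The other cases lay at the limit of detection: Cyp26c1 in EBs of day 20 (0.14 FPKM with DMSO, 0 in the others), Aldh1a3 in EBs of day 4 (0.06 with DMSO, 0 in the others), Rarb in ESCs (0.03 with BPA, 0 in the others) and Stra8 in EBs of day 6 (0 with BPF, 0.19 in the others).

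The effect of bisphenols differed between the global and the neural branch by the interaction test for Rarb (1.74), Dhrs3 (1.48), Cyp26b1 (1.17) and Crabp2 (-1.10), all on the log2 scale. Only Rarb kept this call in every alternative run.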

How the results depend on the processing

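Of 74 called changes of members, 52 kept their call and all 74 kept their direction under every alternative run that tested the gene (790 values). The filter of 5 CPM removed Cyp26c1 and Aldh1a3, so that run could not end their calls. Of the 57 lost calls, 17 fell to limma on log2(FPKM + 1) and 32 to leaving out a treatment or stage. Of 276 recomputed counts of called members, 259 were within 1.5 times the main count. Comparisons with a main count of 0 are included, where another 0 counted as within, so this is no measure of how stable the calls were. With limma on log2(FPKM + 1) the count for EB day 9 against day 6 went from 6 to 3, and for NPCs against EBs of days 9 and 12 from 5 to 2. Over all genes the same fit took the called counts from 2300 to 913 and from 6061 to 3791. A filter of 5 CPM, which 7 of the 9 members pass, gave 1 instead of 2 for EB day 12 against day 9 (1264 instead of 1561 over all genes). At EB day 6, DESeq2 and both limma fits called 1 member in place of 2 (between 323 and 365 of all genes in place of 399). In EBs of days 6 to 20 alone, an alternative chosen after seeing the data, the counts against DMSO were 3 (BPA), 4 (BPF) and 5 (BPS), against 0 over 8 stages. The counts over all genes rose as well, to 568, 1861 and 2190, against 26, 155 and 179 over 8 stages. Counts with 1 treatment or stage left out ranged from 2 to 4 for EB day 12 against day 9, 1 to 2 for bisphenols at EB day 6, 0 to 3 in RA EBs, 0 to 1 for BPS over 8 stages and 1 to 6 for the branch interaction. Over all genes, the first 3 of these ranged from 1350 to 1555, 109 to 781 and 107 to 428. For BPS and the interaction they ranged from 10 to 746 and from 233 to 1960. The cause of these shifts was not tested. The labels number no replicates; the treatment term pairs libraries across stages, and without it Stra8 lost its calls for EB day 9 against day 6 (adjusted p = 0.0529) and for NPCs against EBs of days 9 and 12 (adjusted p = 0.0518), while Cyp26b1 was called in the latter (-1.0). Cyp26c1, Aldh1a3 and, outside ESCs and RA EBs, Stra8 were near 1 CPM, so changes of small size were not detectable there.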
